A study of Mus musculus with 2 samples.

Results

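Inflammasomes are cytosolic complexes in which a sensor protein, on meeting a microbial product or a sign of cell damage, recruits an inflammatory caspase, directly or through an adaptor. The caspase cleaves gasdermin D, whose fragments form pores in the plasma membrane, and caspase-1 also processes the precursors of IL-1β and IL-18. NOD1 and NOD2 belong to the same NOD-like receptor (NLR) family but sense fragments of bacterial peptidoglycan and signal through the kinase RIPK2 to NF-κB and MAP kinases. Macrophages are a main site of both responses, and LPS, a component of the outer membrane of Gram-negative bacteria, is widely used to prime them for inflammasome activation. The 10 genes described here are the sensors *Nlrp3*, *Nlrp1b*, *Nlrc4* and *Aim2*, the adaptor *Pycard*, the caspases *Casp1* and *Casp4*, the pore-forming *Gsdmd*, and the receptors *Nod1* and *Nod2*. They were taken by symbol, with no threshold on their values, and all 10 of the 10 symbols were found among the 37451 genes of the table.

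RNA-Seq was performed as a control for PAR-iCLIP, a crosslinking method that maps the binding sites of RNA-binding proteins. In all, 1 library came from BMDMs (bone marrow-derived macrophages) of WT C57BL/6 mice and 1 from BMDMs of C57BL/6 TTP fl/fl LysMCre mice, called ΔM. In ΔM, the gene *Zfp36*, which encodes the mRNA-destabilizing protein tristetraprolin (TTP), is deleted in myeloid cells by Cre, which is driven by the lysozyme M locus. The animals were 7- to 9-week-old littermates, and the macrophages of both groups were grown with CSF-1 from L929 cells, given the nucleoside 4-thiouridine at 100 μM for 16 h, and treated with LPS at 10 ng/ml for 6 h. No unstimulated library was analysed here, so the levels below are those of LPS-treated cells and do not show what LPS induced. The values are FPKMs, that is, fragments scaled to the length of the exons and to the depth of the library, which allows levels to be compared between genes. Since each genotype was represented by 1 library, no difference between WT and ΔM has a replicate check, and no p-values are given. The 95% intervals given with the values cover counting error only and rest on depths estimated from the steps between low FPKMs, about 36144000 fragments in WT and 32120000 in ΔM.

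The targeted gene *Zfp36* was at 65.26 FPKM in the WT library and 16.71 FPKM in ΔM. *Lyz2*, the gene of the lysozyme M locus that carries the Cre, was at 2480.86 FPKM in WT compared with 1356.26 FPKM in ΔM. All 9 macrophage markers examined were at 1 FPKM or more in WT, with a summed level of 4006 FPKM in WT and 2876 FPKM in ΔM. Without *Lyz2* the sums were nearly equal, at 1526 and 1519 FPKM, and 5 of the other 8 markers were higher in ΔM, among them *Mrc1* at 5.45 and 11.56 FPKM. Of the 10 neutrophil markers, *Ly6g*, *Ngp*, *Elane* and *S100a9* were listed at 0 in both libraries, whereas *S100a8* was at 50.70 and 100.02 FPKM, and the 10 markers summed to 67.9 FPKM in WT compared with 119 FPKM in ΔM. The summed levels of markers of B cells, NK cells, dendritic cells, fibroblasts and erythroid cells were each below 1 FPKM in both libraries, and the T cell markers summed to 10.6 and 11.6 FPKM, nearly all from *Lck*, with *Cd3e*, *Cd3g* and *Trac* listed at 0 in both. The part of these differences in the values below was not tested, and in bulk RNA fewer cells of a type and less RNA per cell cannot be told apart.

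TTP binds AU-rich elements in 3′ UTRs, whose core is the pentamer ATTTA and, in its preferred form, the heptamer TATTTAT (written as DNA). The longest annotated 3′ UTR of each gene was searched on its sense strand for both motifs, where each heptamer also holds 1 pentamer. *Nlrp3*, with a 3′ UTR of 693 nt, held 5 pentamers and 2 heptamers. *Nod2*, with 1508 nt, held 4 pentamers and 2 heptamers. No other gene of the 10 held the heptamer in its annotated 3′ UTR, and *Nlrc4*, *Aim2*, *Casp4* and *Nod1* held 1 pentamer each. Among expressed protein-coding genes with a 3′ UTR within 20% of the length of that of *Nlrp3* (n = 911), 17.2% held at least 1 heptamer. Among 1242 such genes near the length of *Nod2* the share was 31.4%. *Nlrp1b*, *Pycard*, *Casp1* and *Gsdmd* held 0 pentamers. Of expressed genes near their lengths, 89.8%, 52.1%, 15.9% and 24.3% held at least 1. Over all 7935 expressed protein-coding genes with an annotated 3′ UTR, 27.0% held the heptamer and 66.6% the pentamer, against 2 and 6 of the 10 genes here.

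The copy of the study's list of TTP sites after 6 h of LPS used here contained sequences in *Nlrp3*, *Casp1*, *Casp4* and *Gsdmd*, and each was found at its listed position in mm9 (NCBIM37). Of these genes, only *Nlrp3* had sites in the 3′ UTR, and it also had 1 of 4 nt in an intron. The longest of its 3 sites in the 3′ UTR spanned 39 nt, from 59380332 to 59380370 on chromosome 11, and contained 2 pentamers and 1 heptamer. The first 30 nt of this site are shown with the pentamers in capitals, followed by the heptamer of *Nlrp3* that lay outside the listed sites and the 2 heptamers of *Nod2*, for which no site sequence was used here, each with the heptamer in capitals and 10 nt on either side. All are on the plus strand, 5′ to 3′.
*Nlrp3* 3′ UTR site, chr11:59380332-59380361: ATTTAtaaaacccatttttgtATTTAttgt
*Nlrp3* 3′ UTR heptamer, chr11:59380403-59380429: tcttttaagtTATTTATccaaactact
*Nod2* 3′ UTR first heptamer, chr8:91212093-91212119: agctccatttTATTTATgacaatgctt
*Nod2* 3′ UTR second heptamer, chr8:91212268-91212294: agcgggttaaTATTTATaaatggcact

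The listed sites in the caspase genes and *Gsdmd* lay in introns. They were short, between 5 and 10 nt, and none contained the pentamer within its listed ends. The flank shown after the *Casp4* site does hold the heptamer TATTTAT, so the absence of motifs applies to the listed stretches only. The longest of each gene is shown in capitals with its flanks on the plus strand, since it lies outside the exons on which the FPKMs were counted.
*Casp1* intron, chr9:5306299-5306328: ttcatattgtCATTTTTATAaaaagaatat
*Casp4* intron, chr9:5323073-5323101: aaaatcatggTGTTAATTAttttatttat
*Gsdmd* intron, chr15:75694150-75694178: ctcctctggtccTATTTccagagtaggga

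**Figure D1:**
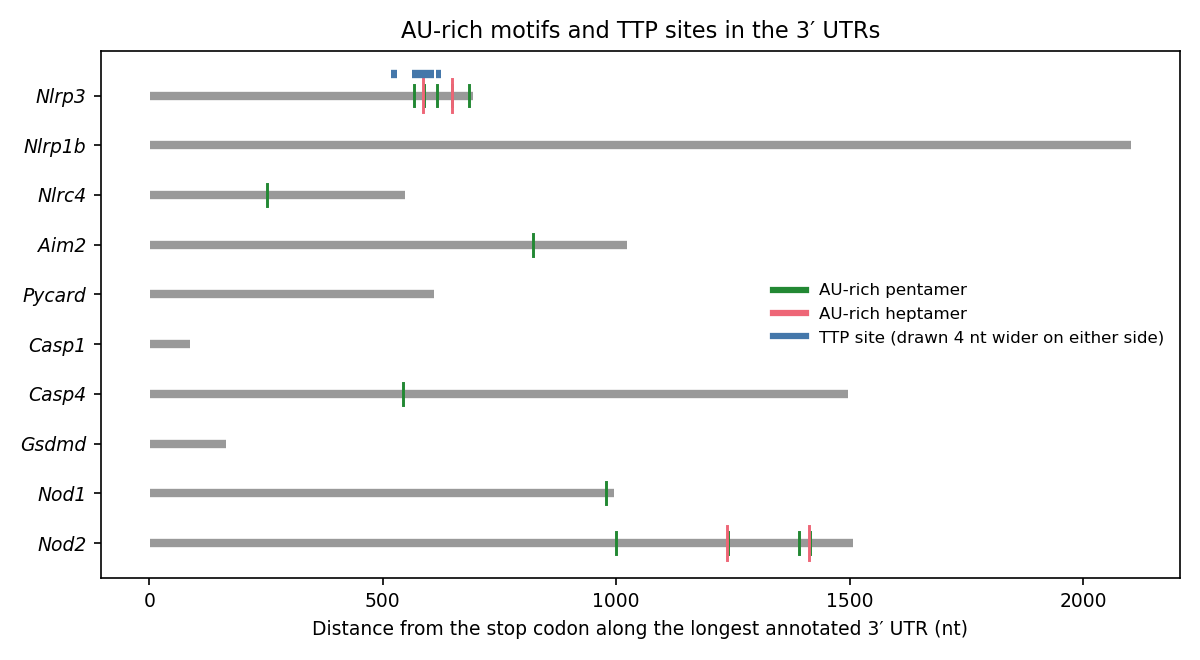
Map of the longest annotated 3′ UTR of each gene (grey bars), with distance from the stop codon in nt on the horizontal axis. AU-rich pentamers (green), heptamers (red) and the TTP sites listed for the 3′ UTRs (blue, drawn 4 nt wider on either side to be visible) are marked. *Nlrp3* and *Nod2* are the genes with heptamers, and the motifs of *Nlrp3* and its 3 sites lie in the last part of the 693 nt.

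The sensor *Nlrp3* responds to a wide range of stimuli, from ATP and potassium efflux to crystals. Its gene (ENSMUSG00000032691, chromosome 11, 59355070 to 59380458, plus strand) is given, like all positions here, by mm9 coordinates. *Nlrp3* was at 38.51 FPKM in WT (95% counting interval 37.5 to 39.6) and at 23.67 FPKM in ΔM (22.8 to 24.6), from about 5089 and 2779 fragments. The level was lower in ΔM and the intervals did not overlap. The ratio of ΔM to WT was 0.615 (0.587 to 0.644), so that the WT level was 1.63 times that of ΔM, and the log2 ratio calculated after adding 1 FPKM to both values was -0.68. On that scale, 3.54% of 8078 protein-coding genes whose mean of both libraries reached 1 FPKM had a lower ratio, and among the 1580 of them with a mean level within 2-fold of that of *Nlrp3* the share was 2.85%. The 3′ UTR of *Nlrp3* holds the TTP site shown above, and whether that site bears on the difference between the libraries was not tested.

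*Aim2* binds double-stranded DNA in the cytosol. The gene (ENSMUSG00000037860, chromosome 1, 175281010 to 175396171, plus strand) was at 31.76 FPKM in WT (29.3 to 34.3) and 33.45 FPKM in ΔM (30.8 to 36.3). These intervals overlapped, and that of the ratio, 0.940 to 1.18 around 1.05, included 1. Of the 50-nt windows in the exons of *Aim2*, 95.3% occurred once in the genome, the lowest share among the 10 genes, which matters because the authors kept uniquely mapped reads. Among the sensors of the 10 genes only, *Aim2* was second by level in WT and first in ΔM, since *Nlrp3* was below it there. The FPKM of *Nlrp3* was 1.21 times that of *Aim2* in WT and 0.708 times in ΔM.

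The other sensors were below 1 FPKM in both libraries. *Nlrc4*, which assembles with NAIP proteins that bind flagellin and type III secretion components, was at 0.74 FPKM in WT (0.600 to 0.902) and 0.66 FPKM in ΔM (0.521 to 0.825). Its gene is ENSMUSG00000039193, on chromosome 17 from 74825635 to 74858448 on the minus strand. *Nlrp1b* (ENSMUSG00000070390, chromosome 11, 70966604 to 71044235, minus strand), the sensor of anthrax lethal factor in susceptible mouse strains, was at 0.37 FPKM in WT (0.272 to 0.492) and 0.18 FPKM in ΔM (0.111 to 0.277). These levels rest on about 47.2 and 20.4 fragments for *Nlrp1b* and 97.5 and 77.2 for *Nlrc4*. The FPKM ratio of ΔM to WT was 0.486 for *Nlrp1b* with a wide interval from 0.275 to 0.834, and for *Nlrc4* it was 0.892 with an interval from 0.653 to 1.21 that included 1. Both genes had means under 1 FPKM and are left out of the counts over ratios. The neighbouring paralogs of *Nlrp1b* were also low, with *Nlrp1a* at 0.44 and 0.55 FPKM and the pseudogene *Nlrp1c-ps* at 0.36 and 0.43 FPKM in WT and ΔM.

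*Pycard* encodes ASC, the adaptor that links pyrin-domain sensors such as NLRP3 and AIM2 to caspase-1. The gene (ENSMUSG00000030793, chromosome 7, 135135617 to 135137381, minus strand) was at 16.31 FPKM in WT (15.1 to 17.6) and 21.86 FPKM in ΔM (20.4 to 23.4). It was higher in ΔM, with intervals that did not overlap, a ratio of 1.34 (1.21 to 1.48) and a log2 ratio of 0.40. This was the highest ratio of the 10 genes but did not reach 1.5-fold. Among 2153 protein-coding genes within 2-fold of its mean level, 93.1% had a lower log2 ratio. *Pycard* and *Nlrp3* thus differed in opposite directions, and the FPKM of *Nlrp3* relative to that of *Pycard* was 2.36 in WT and 1.08 in ΔM. With *Aim2* the difference was smaller, at 1.95 and 1.53.

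**Figure D2:**
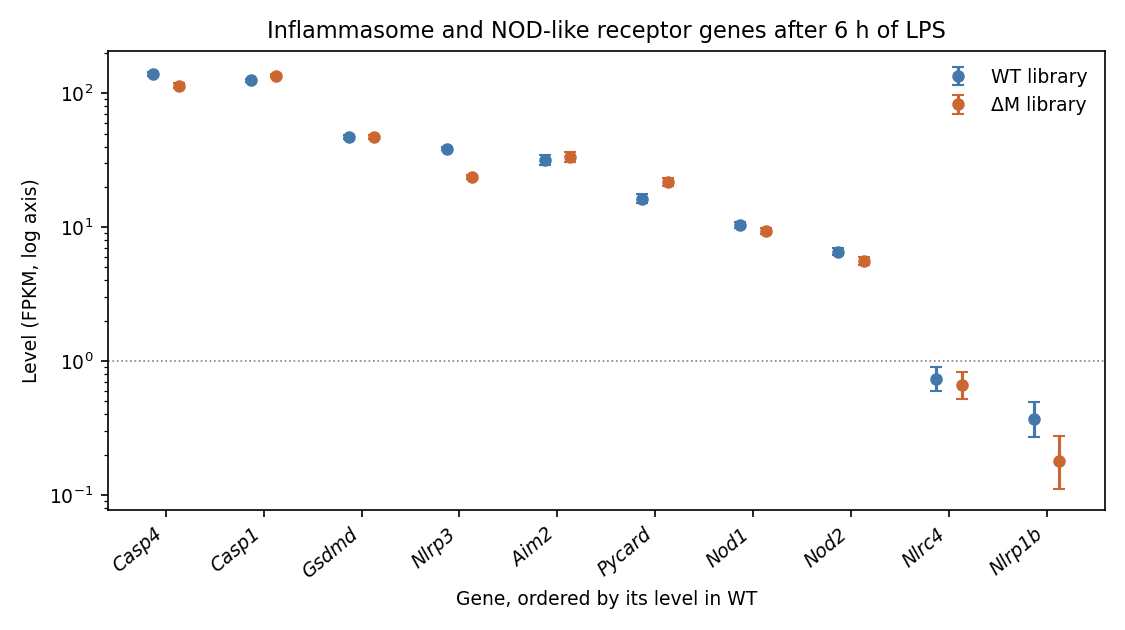
Level of each gene in FPKM (log axis) in the WT (blue) and ΔM (orange) library, 1 library each, ordered by the WT level. Bars are 95% counting intervals and the dotted line marks 1 FPKM. The intervals of *Nlrp3* (38.51 and 23.67 FPKM), *Pycard* (16.31 and 21.86 FPKM) and *Casp4* (140.45 and 113.84 FPKM) are apart between the libraries, those of *Casp1* and *Nod2* are apart by less, *Gsdmd* is level, and *Nlrc4* and *Nlrp1b* lie below 1 FPKM.

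The caspases were the most abundant of the 10 mRNAs. *Casp1*, whose product is the effector of the canonical inflammasome, was at 124.79 FPKM in WT (122 to 128) and 134.98 FPKM in ΔM (131 to 139). *Casp4*, the mouse gene for caspase-11, which binds LPS in the cytosol, was at 140.45 FPKM in WT (136 to 145) and 113.84 FPKM in ΔM (109 to 118). These genes lie next to each other on the plus strand of chromosome 9, *Casp1* (ENSMUSG00000025888) from 5298517 to 5307265 and *Casp4* (ENSMUSG00000033538) from 5308828 to 5336783. They differed between the libraries in opposite directions, with ratios of ΔM to WT of 1.08 (1.04 to 1.12) for *Casp1* and 0.811 (0.769 to 0.854) for *Casp4*. As a result the FPKM of *Casp4* was 1.13 times that of *Casp1* in WT and 0.843 times in ΔM, and the counting intervals of the pair did not overlap in either library. The log2 ratio of *Casp4* was -0.30, with 10.3% of 497 protein-coding genes of like level below it, and that of *Casp1* was 0.11. Another gene of this cluster, *Casp12*, was far lower, at 1.36 FPKM in the WT library and 2.30 FPKM in ΔM.

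*Gsdmd* (ENSMUSG00000022575, chromosome 15, 75692769 to 75697834, plus strand), the common substrate of caspase-1 and caspase-11, was at 46.97 FPKM in WT (45.2 to 48.8) and 47.21 FPKM in ΔM (45.3 to 49.1). The libraries were nearly level, at a ratio of 1.01 with an interval from 0.951 to 1.06. The *Gsdmd* level was 0.376 times that of *Casp1* in WT and 0.350 times in ΔM.

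The peptidoglycan receptors were expressed at lower levels than the inflammasome components other than *Nlrc4* and *Nlrp1b*. *Nod1* (ENSMUSG00000038058, chromosome 6, 54873936 to 54922606, minus strand) was at 10.38 FPKM in WT (9.86 to 10.9) and 9.35 FPKM in ΔM (8.83 to 9.89). *Nod2* (ENSMUSG00000055994, chromosome 8, 91171214 to 91212373, plus strand) was at 6.55 FPKM in WT (6.16 to 6.96) and 5.56 FPKM in ΔM (5.18 to 5.96). Both were somewhat lower in ΔM, with ratios of 0.901 (0.834 to 0.972) for *Nod1* and 0.849 (0.773 to 0.931) for *Nod2*. *Nod2* is the other gene with heptamers in its 3′ UTR, and 24.3% of protein-coding genes had a log2 ratio below its value of -0.20. Of the 10 genes, 6 had a log2 ratio below 0 and 4 above. *Casp4*, whose annotated 3′ UTR holds no heptamer, had a lower FPKM ratio than *Nod2*, at 0.811. Whether the motifs bear on the levels was not tested. *Nod1* exceeded *Nod2* 1.58-fold in WT and 1.68-fold in ΔM.

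Within WT the levels descended from *Casp4* through *Casp1*, *Gsdmd*, *Nlrp3*, *Aim2*, *Pycard*, *Nod1*, *Nod2* and *Nlrc4* to *Nlrp1b*. No neighbours in this order had overlapping counting intervals at the median annotated transcript length. At the shortest annotated transcript the WT intervals of *Nlrp3* and *Aim2* were 5.89 and 10.3 FPKM wide, which is wide enough for them to overlap. In ΔM, *Casp1* stood above *Casp4* and *Aim2* above *Nlrp3*, and the other places were as in WT. *Nlrp3* and *Pycard* were the only neighbours with overlapping intervals in ΔM. In both libraries the widest step between neighbours was that from *Nod2* to *Nlrc4*, which was 8.85-fold in WT and 8.42-fold in ΔM. In WT, 96.8% of the 8078 protein-coding genes whose mean reached 1 FPKM were below *Casp4*, 87.8% were below *Nlrp3*, and 50.9% were below *Nod2*.

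Ratios between the libraries were then read against those of all protein-coding genes whose mean reached 1 FPKM. Of these 8078 genes, 4.82% were at least 1.5-fold higher and 5.36% at least 1.5-fold lower in ΔM on the log2(FPKM + 1) scale, which understates the differences of low genes. Of the 10 genes described here, 8 had a mean of at least 1 FPKM, and 0 of them were past 1.5-fold higher and 1, *Nlrp3*, was past 1.5-fold lower. The median log2 ratio of the 8 genes was -0.065, beside a median near 0 and quartiles of -0.19 and 0.18 for the 8078 genes. A count of 1 in 8 does not set these genes apart from protein-coding genes in general.

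**Figure D3:**
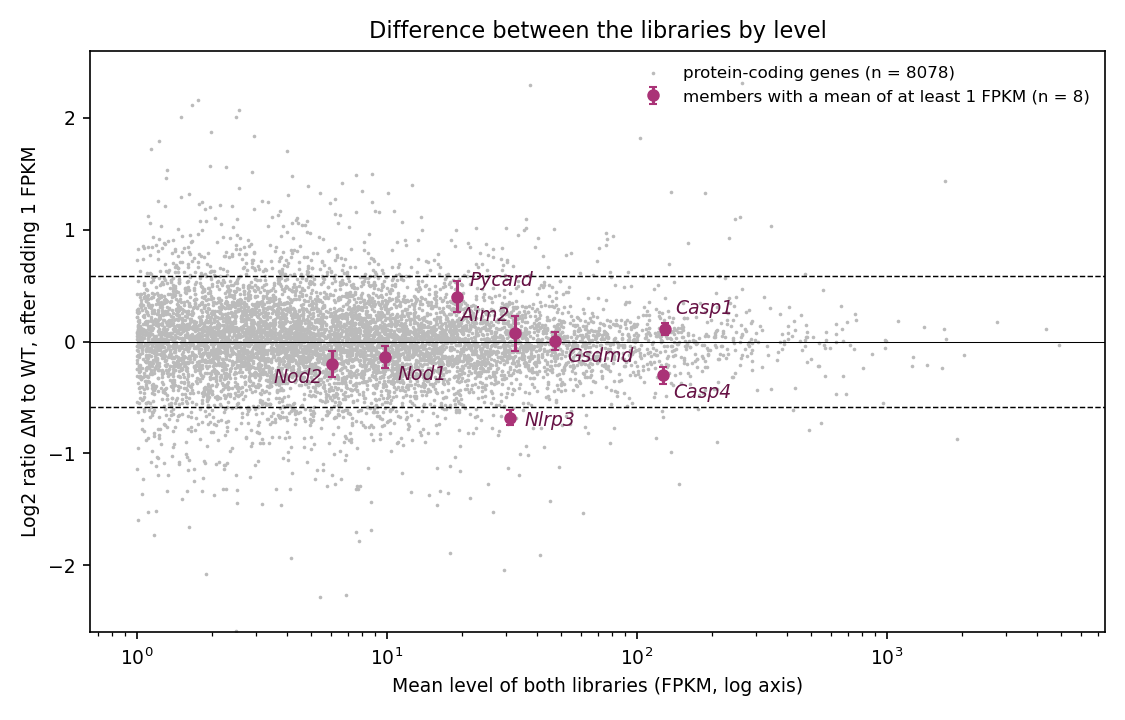
Log2 ratio of ΔM to WT after adding 1 FPKM (vertical axis) against the mean FPKM of both libraries (horizontal log axis) for 8078 protein-coding genes (grey; 11 lie outside the vertical range) and the 8 of the 10 genes whose mean reached 1 FPKM (purple, with 95% counting intervals). Dashed lines mark 1.5-fold. *Nlrp3* lies below the lower line at -0.68, *Pycard* is the highest of the 8 at 0.40, and the other genes lie within the bulk of genes of like level.

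Genes that act with these 10 were examined in 6 lists holding 82 genes, of which 81 were in the table and 64 had a mean of at least 1 FPKM. On the log2(FPKM + 1) scale, none of the 64 was at least 1.5-fold higher in ΔM, beside 4.82% of protein-coding genes. At least 1.5-fold lower were 2, *Dhx33* and *Il18*, beside 5.36% of protein-coding genes. Among other NLR and inflammasome sensors, 10 of 20 reached 1 FPKM. The DNA sensors *Ifi204* (174.29 FPKM in WT and 171.78 FPKM in ΔM) and *Mnda* (96.78 and 84.95 FPKM) were the most abundant. *Dhx33*, an RNA helicase reported to activate NLRP3, was at 4.08 FPKM in WT compared with 2.26 FPKM in ΔM, with a log2 ratio of -0.64 from about 181 and 89.1 fragments. *Mefv*, which encodes the sensor pyrin, was at 10.90 FPKM in the WT library and 13.15 FPKM in ΔM, a ratio of 1.21 (1.11 to 1.31). The NAIP receptors, named here after their values were seen because they act with NLRC4, were unequal: *Naip2* was at 5.72 and 5.51 FPKM, *Naip5* at 1.95 and 2.10 FPKM and *Naip6* at 2.81 and 2.56 FPKM in WT and ΔM. *Naip1* was at 0.08 and 0.11 FPKM. In both libraries *Naip2*, *Naip5* and *Naip6* were thus above the level of *Nlrc4*, and *Naip1* was below it. NAIP genes are paralogs of each other. How much of their sequence is unique in the genome was not examined, nor was it for the other listed genes, so their single values are uncertain.

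All 18 genes of NOD1 and NOD2 signalling reached 1 FPKM. On the log2(FPKM + 1) scale 0 were past 1.5-fold in either direction, and the median log2 ratio was -0.08. *Tab3*, named after its value was seen, had an FPKM ratio of 0.610, with a wide interval from 0.274 to 1.29. The lysosomal transporter *Slc15a3*, which carries muramyl dipeptide to the cytosol, was at 101.87 FPKM in WT compared with 95.84 FPKM in ΔM. *Ikbkg*, the regulatory subunit of the IκB kinase, was at 48.89 and 44.75 FPKM. The catalytic subunit *Ikbkb* was at 51.88 FPKM in the WT library and 36.66 FPKM in ΔM, a log2 ratio of -0.49 and the furthest from 0 in the list. *Xiap*, a ubiquitin ligase that modifies RIPK2, followed with 6.81 and 4.65 FPKM and a log2 ratio of -0.47. *Ripk2* itself, named after its value was seen, was close to level at 19.76 and 18.58 FPKM.

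All 16 activators and partners of NLRP3 reached 1 FPKM, with 0 past 1.5-fold and a median log2 ratio of 0.02. The guanylate-binding proteins *Gbp2* (555.32 and 590.45 FPKM) and *Gbp3* (297.58 and 282.53 FPKM), which act on bacterial membranes and vacuoles, had the highest levels. *Syk*, a tyrosine kinase, was at 60.52 FPKM in WT compared with 47.87 FPKM in ΔM. *Panx1*, a channel that releases ATP, was at 1.53 and 0.83 FPKM, with a log2 ratio of -0.47 and a ratio interval from 0.330 to 0.872. Its few fragments, about 56.4 and 27.2, make this the least precise ratio of those named in the list. *Nlrp3* was past 1.5-fold lower in ΔM, as were 5.36% of protein-coding genes. The 16 genes of this list were all within 1.5-fold on the log2(FPKM + 1) scale, although the FPKM ratio of *Panx1* was 0.542. Beside that share, a count of 0 in 16 does not set the list apart from protein-coding genes in general.

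Among 12 other caspases and cell death partners, 10 reached 1 FPKM. On the log2(FPKM + 1) scale 0 were past 1.5-fold, with a median log2 ratio of -0.08. *Cflar*, the inhibitor of caspase-8, was at 114.97 FPKM in the WT library and 107.33 FPKM in ΔM. *Ninj1*, which ruptures the plasma membrane downstream of gasdermin pores, was at 36.91 and 29.01 FPKM, a ratio of 0.786 (0.719 to 0.859), unlike *Gsdmd*, which was level. *Casp12* had the highest log2 ratio of the list at 0.48, and an FPKM ratio of 1.69 (1.22 to 2.36).

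The cytokines processed or released in inflammasome activation had lower values in ΔM. *Il1b*, encoding the precursor of IL-1β, was at 874.57 FPKM in WT compared with 740.58 FPKM in ΔM, a ratio of 0.847 (0.827 to 0.867). *Il1a* was at 27.91 and 22 FPKM, a ratio of 0.788 (0.733 to 0.848). *Il18* was at 11.17 FPKM in the WT library and 7.11 FPKM in ΔM, a ratio of 0.637 (0.502 to 0.803), and its log2 ratio of -0.59 lay just past 1.5-fold, which it no longer did once the ratios were centred on the median of protein-coding genes. The median log2 ratio of these 3 genes was -0.33. The fourth gene of the list, *Hmgb1*, had values below 1 FPKM in both libraries, from about 16.9 fragments in WT and 9.31 in ΔM. The authors kept uniquely mapped reads only, and the unique share of the *Hmgb1* sequence was not examined. Low expression of this gene is therefore not inferred. The mRNA of *Il1b* was 22.7 times as abundant as that of *Nlrp3* in WT and 31.3 times in ΔM.

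Of 11 inhibitors of inflammasome output, 7 reached 1 FPKM. On the log2(FPKM + 1) scale 0 were past 1.5-fold, with a median log2 ratio of 0.01. *Il1rn*, the IL-1 receptor antagonist, was the most abundant gene of all 6 lists, at 980.19 FPKM in WT compared with 986.99 FPKM in ΔM, and above *Il1b* in both libraries. *Trim30a* was at 128.30 and 120.09 FPKM. *Tnfaip3*, encoding the NF-κB inhibitor A20, was at 109.91 FPKM in the WT library and 73.25 FPKM in ΔM, and its log2 ratio of -0.58 fell just short of 1.5-fold. *Pydc4*, a pyrin-domain protein, was at 5.45 and 7.43 FPKM with a log2 ratio of 0.39, close to that of *Pycard*.

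**Figure D4:**
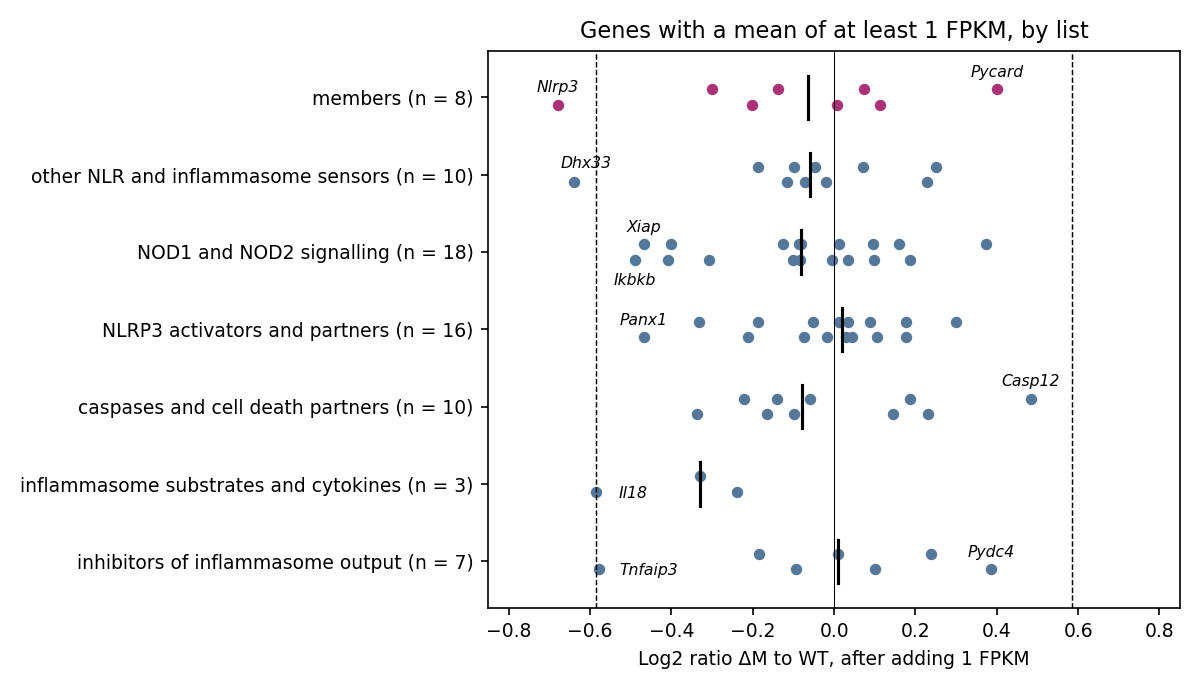
Log2 ratio of ΔM to WT after adding 1 FPKM for each gene with a mean of at least 1 FPKM, in the 10 genes described (purple, labelled members) and the 6 lists of genes that act with them (blue). Points are genes, black bars are list medians, and dashed lines mark 1.5-fold. *Nlrp3*, *Dhx33* and *Il18* lie at or beyond the lower line, no gene lies beyond the upper line, and the median of the substrates and cytokines (-0.33) is the lowest.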

How the data were processed

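Control RNA-Seq libraries of 1 WT and 1 ΔM culture were made by the authors from rRNA-depleted, fragmented total RNA with a ligated 3′ adaptor and sequenced in paired ends. After trimming with Cutadapt and mapping to mm9 with Segemehl, the authors retained reads with a unique position and obtained gene FPKMs from Ensembl exons with Cufflinks. The deposited table holds 1 FPKM with 2 decimals per gene and library, and no read counts.

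The log2 ratio (ΔM to WT) was taken with 1 FPKM added to both values. Genes whose mean reached 1 FPKM were counted past 1.5-fold. Gene types, transcripts and 3′ UTRs came from GENCODE M1 on NCBIM37 (mm9), where 37039 of 37451 identifiers matched. Depth was estimated as the number of fragments at which low FPKMs become whole multiples of 1 fragment, which was so for 94.1% (WT) and 94.2% (ΔM) of them. On 3 simulated libraries, made with the same fixed fragment length formula that the estimate assumes, it was off by at most 0.059%. That figure checks the fitting only and does not give the accuracy for the deposited values. Counting intervals are 95% Poisson intervals for levels and Clopper-Pearson intervals for ratios, at the median annotated transcript length, and they contain no biological or preparation error. No statistical test was made, since 1 library per genotype leaves no spread to test against. TTP site sequences, but no values, came from the study's site list. All 10 members were named, with the 2 most abundant genes and the 2 with the largest absolute log2 ratio of each list, the 3 cytokine genes, *Zfp36*, *Lyz2* and the paralogous neighbours of members. The members and lists were chosen with earlier results of these data known. Alternatives changed the pseudocount, filter, scaling, threshold, background and transcript length. Python 3.11.15, numpy 2.4.6, pandas 2.3.3, scipy 1.17.1 and matplotlib 3.10.9 were used.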

Additional observations from a re-analysis of the deposited data

How the results depend on the processing

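Of 116 recalculated values, 93 stayed within the counting interval of the value (log2 ratios) or within 1.5 times of it (counts, shares and widths), and 23 moved further. The sign of the log2 ratio of each of the 10 members was the same under another pseudocount (0.1 FPKM or none) and under both scalings, with a range from -0.70 to -0.66 for *Nlrp3* and from 0.40 to 0.43 for *Pycard*. *Nlrp3* was past 1.5-fold lower in all of these, but at a threshold of 2-fold 0 members were lower. *Nlrp1b*, at few fragments, ranged from -1.04 to -0.21. The median log2 ratio of the members turned from -0.065 to 0.040 at a mean of at least 10 FPKM, where fewer genes entered. In the lists of genes acting with the members, 2 genes were past 1.5-fold lower, against 4 with a pseudocount of 0.1 FPKM, 5 with none, 1 when centred on the median, 1 when scaled to the upper quartile, and 0 at a mean of at least 10 FPKM or at 2-fold, and 1 gene was past 1.5-fold higher with a pseudocount of 0.1 FPKM or none. With all genes as background, 11.2% were past 1.5-fold higher, against 4.82% of protein-coding genes. With the shortest or longest annotated transcript, 30 of 40 widths of counting intervals changed little, and those of *Nlrp3*, *Aim2* and *Casp4* moved. No paired analysis was possible because there was 1 library per genotype. Without replicates, the spread between cultures or animals is not known, and the depth limits *Nlrp1b* and *Nlrc4*.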

Other observations

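The paralogs of the deleted gene, *Zfp36l1* and *Zfp36l2*, whose products bind the same AU-rich elements, were chosen for mention after their values were seen. *Zfp36l1* was at 0.35 FPKM in the WT library and 0.99 FPKM in ΔM, a ratio of 2.83 with a 95% counting interval from 1.81 to 4.53. *Zfp36l2* was at 0.71 FPKM in WT compared with 1.22 FPKM in ΔM, a ratio of 1.72 (1.21 to 2.46). Both had means below 1 FPKM, and the difference has no replicate check.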
